A study of Mus musculus with 15 samples.

Results

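Chromatin regulator genes were followed through a data set on histone H3 and the remodelling factor ACF1 in mice that had gone through chronic social defeat, a stress model of depression. The tissue was the nucleus accumbens, a reward centre of the forebrain. The members were chosen by symbol: every gene outside chromosome 1 that the H3 tables name with a prefix of the Baz, Smarc, Arid, Chd, Ino80, Hdac, Kdm, Setd, Ehmt, Suv, Dnmt, Tet, Kat, Mll or Bptf families. They came to 38 genes of the 6691 that the tables name outside chromosome 1, and to 69 of 16350 entries. An entry is a position in 1 table. Of the members' entries 68 were changes in H3 occupancy, at 62 distinct positions since 6 stand in 2 tables, and 1 was a nucleosome shift. Some members are no chromatin enzymes in the strict sense: Smarca5-ps is a pseudogene of Smarca5, and Mllt1 and Mllt10 are fusion partners of Mll1 in leukaemia.

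Susceptible mice were defeated by CD1 aggressors for 10 days and then avoided a social target. Resilient mice went through the same 10 days and did not avoid it, and control mice were not defeated. All were C57BL/6, and tissue was collected 48 h after the last defeat; the sources used here give no age or sex. Each library came from accumbens punches pooled from 10 mice, so that it averages over animals and over all cell types of the region. A lower H3 signal in such tissue cannot be told apart from fewer cells of a type that holds the nucleosome, and with no expression values the label of the tissue was not checked against markers. Each pair of groups has 1 deposited occupancy table and each group 1 deposited ACF1 list, so there is no spread between replicates and no test between groups.

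The occupancy tables list positions that the authors selected and mark each Up or Down, with no size of change, no p-value and no read count. Up is read here as more H3 in the first-named group of a comparison. The files do not state this, and under the opposite reading every direction turns round. Positions of 1 gene are not independent of each other, and the comparisons share groups, so marks of 2 comparisons are set side by side and not counted as repeats.

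DNA in the nucleus is wound on nucleosomes, whose place and spacing are set by ATP-driven remodellers such as the SWI/SNF (BAF), ISWI, CHD and INO80 enzymes. ACF, an ISWI complex, joins the motor SNF2H, made from Smarca5, to ACF1, made from Baz1a, and spaces nucleosomes evenly. Histone modifiers add or remove acetyl and methyl groups on histone tails, and DNMT and TET enzymes write and oxidise DNA methylation. In the nucleus accumbens, histone deacetylases and DNA methyltransferases are known for their part in lasting responses to stress and to drugs of abuse.

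The promoters of Smarca5, Smarcd2, Kdm4d and Chd1l are printed because their genes carry a listed change close to the start or, for Smarca5, because it makes the motor of ACF, and because RefSeq gives 1 start for each. They run from 250 bases before the start to 50 after it, 5′ to 3′ on the gene's strand, in the RefSeq build GRCm38.p6, with CpG dinucleotides in capitals. None of the listed H3 changes of these genes lies in this window, going by their distances from the start in the tables. The windows are chr8:80739410-80739709 for Smarca5, chr11:106267583-106267882 for Smarcd2, chr9:14500433-14500732 for Kdm4d and chr3:97610141-97610440 for Chd1l, all on the minus strand.
Smarca5: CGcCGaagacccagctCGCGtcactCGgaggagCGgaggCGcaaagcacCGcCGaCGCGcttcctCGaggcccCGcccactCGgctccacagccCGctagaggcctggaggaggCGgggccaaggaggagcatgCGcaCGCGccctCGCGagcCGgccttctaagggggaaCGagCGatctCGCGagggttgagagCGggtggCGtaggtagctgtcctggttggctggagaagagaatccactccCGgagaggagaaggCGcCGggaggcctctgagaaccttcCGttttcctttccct
Smarcd2: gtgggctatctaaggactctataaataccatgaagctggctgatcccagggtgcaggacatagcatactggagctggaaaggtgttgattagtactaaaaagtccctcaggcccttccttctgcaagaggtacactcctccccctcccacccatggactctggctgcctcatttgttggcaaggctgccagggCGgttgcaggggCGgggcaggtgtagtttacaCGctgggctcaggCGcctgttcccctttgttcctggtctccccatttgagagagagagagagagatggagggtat
Kdm4d: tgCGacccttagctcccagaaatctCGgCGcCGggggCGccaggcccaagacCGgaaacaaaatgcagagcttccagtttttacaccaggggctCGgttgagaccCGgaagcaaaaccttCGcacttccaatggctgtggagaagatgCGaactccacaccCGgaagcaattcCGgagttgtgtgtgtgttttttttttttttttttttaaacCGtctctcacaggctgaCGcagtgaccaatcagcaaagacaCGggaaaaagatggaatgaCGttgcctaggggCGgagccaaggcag
Chd1l: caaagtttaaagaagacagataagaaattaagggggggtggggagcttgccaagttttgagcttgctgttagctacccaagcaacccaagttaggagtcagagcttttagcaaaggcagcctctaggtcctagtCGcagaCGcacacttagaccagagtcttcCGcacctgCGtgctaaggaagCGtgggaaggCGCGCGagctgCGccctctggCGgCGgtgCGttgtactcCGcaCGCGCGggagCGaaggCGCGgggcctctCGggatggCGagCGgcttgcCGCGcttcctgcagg
The Smarca5 window held 32 CpG at a GC content of 67.7%, and its ratio of observed to expected CpG was 0.936. Chd1l held 24 CpG (ratio 0.917) and Kdm4d 17 (ratio 0.818). The Smarcd2 window stood apart from these with 4 CpG and a ratio of 0.177. The TATA, CCAAT and GC boxes were searched on both strands; none contains another, and a match is only a run of letters. The TATA box letters TATAAA occurred in the Smarcd2 window alone of those printed, against 13.7% of all RefSeq promoters outside chromosome 1. CCAAT occurred in Kdm4d alone of them, against 37.5% of all promoters. The GC box letters GGGCGG occurred in Smarca5, Smarcd2 and Kdm4d, against 35.7% of all promoters.

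RefSeq gave 40 promoters for 31 of the 38 members, and they were rich in CpG. Their median was 25.5 CpG in 300 bases, against 12 for the promoters of all genes named in the H3 tables and 7 for all promoters. A ratio of at least 0.6 was found in 75% of the member promoters, against 45% of those of the named genes. The 2 Hdac9 promoters were at the other end, with 0 and 3 CpG, and Baz2b had 5. These values describe sequence and were not used to choose the members; they say nothing of binding.

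Not every chromatin family appeared in the tables. RefSeq holds 110 protein-coding genes of these families outside chromosome 1, counted with renamed genes such as Kmt2a (Mll1), and 37 of them (33.6%) were named in an H3 table, against a background of 29.5% of all protein-coding genes outside chromosome 1. Of 10 CHD remodellers 6 were named, of 9 Arid genes 5, of 12 Smarc genes 5, and of 5 bromodomain partners of ISWI motors 4, all but Bptf. Of 17 genes with Setd, Ehmt or Suv symbols, grouped as histone methyltransferases, 6 were named. Of 10 Hdac genes 3 were named and of 17 Kdm genes 2, Kdm4a and Kdm4d. These groups go by symbol, so they leave out genes of like function with other names. Of 4 DNA methyltransferases only Dnmt3b was named and of 3 TET dioxygenases only Tet3. None of the 8 lysine acetyltransferases with a Kat symbol and none of the 4 genes with an Ino80 symbol was named. Ep300, an acetyltransferase without a Kat symbol, had 1 Up mark in susceptible against control mice. Gene length differs between families and its part in these counts was not tested.

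**Figure D1:**
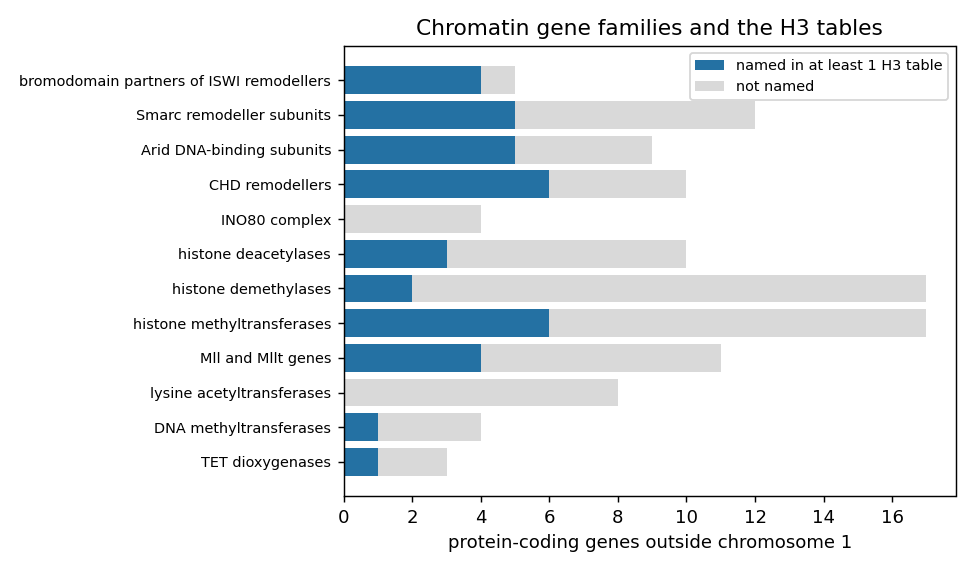
Protein-coding genes of each chromatin family outside chromosome 1 (x axis, number of genes) that are named in at least 1 H3 table (blue) or in none (grey). The CHD family has 6 of 10 genes named, the lysine acetyltransferases with a Kat symbol 0 of 8.

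Most members carried a single listed change. Of the 38 members 24 (63.2%) had 1 occupancy entry, against 49.7% of all named genes, and the median was 1 entry in both sets. By distinct positions, 28 members (73.7%) had 1, against 57.1% of all named genes. Only Hdac9 with 14 and Chd7 with 4 reached 4 entries, while 15.8% of all named genes did. The members had a median length of 44.6 kb, against 36.9 kb for all named genes, and held 18.6 entries per Mb of gene, against 27.5. Without Hdac9 the members held 19.4 per Mb.

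In susceptible against control mice, 23 positions in 17 members were listed, 5 Up and 18 Down. The 17 members are 44.7% of the set, against a background of 53.9% of all named genes with a position in this comparison. The share of Up was 21.7%, with an exact 95% Clopper-Pearson interval of 7.46 to 43.7% that covers counting error only, against a background of 37.6% Up over 5567 positions. The background lies inside the interval. Hdac9 supplied 5 of the 18 Down marks, and without it the share of Up was 27.8%.

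In resilient against control mice, 17 positions in 14 members were listed, 5 Up and 12 Down. The 14 members are 36.8% of the set, against a background of 53.3%. The share of Up was 29.4% (interval 10.3 to 56%), against a background of 36.7%. The comparison of resilient with susceptible mice was evenly split: 28 positions in 18 members, 15 Up and 13 Down. The 18 members are 47.4%, against a background of 49.2%, and the share of Up was 53.6% (interval 33.9 to 72.5%), against a background of 49.8%. In each comparison the interval for chromatin genes spanned the share over all positions given a gene.

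**Figure D2:**
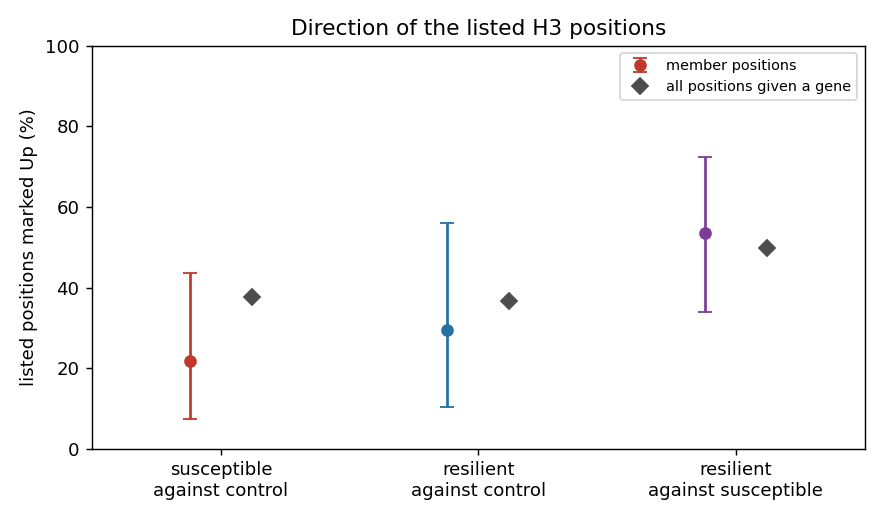
Share of listed H3 occupancy positions marked Up (y axis, percent) in the 3 comparisons. Circles are positions of member genes with exact 95% intervals (n = 23, 17 and 28 positions), diamonds are all positions given a gene, and every interval spans its diamond.

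The ACF genes themselves were both listed. Smarca5, the SNF2H motor (chromosome 8, mm9, bounds 83223842 to 83263358, minus strand), had 1 position, 83254952, 8.41 kb inside the gene. It was marked Down in susceptible against control mice and Down in resilient against control mice, and was not listed between resilient and susceptible mice. Both marks rest on the same control data. Baz1a, which makes ACF1 (chromosome 12, bounds 55993975 to 56087323, minus strand), had 3 different positions. In susceptible against control mice, position 56032842 was Down, 54.5 kb into the gene. In resilient against control mice, 56000162 was Up near the end of the gene at 87.2 kb, and 55993782, which lies 194 bp past the gene's end, was Down. In susceptible mice both genes thus had a Down mark, and in resilient mice Baz1a was marked in both directions.

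The other listed partners of ISWI motors each had at least 1 mark in resilient against susceptible mice. Baz2a, whose protein TIP5 silences ribosomal DNA with SNF2H, had 2 Down marks there, 127563462 and 127563862 on chromosome 10, only 400 bp apart and near the end of the gene. Baz1b, which makes the Williams syndrome transcription factor, had 1 Down mark in the same comparison. Baz2b, a bromodomain protein, had 1 Up mark there, and 1 Up and 1 Down in susceptible against control mice. Its 3 positions, 59812292, 59823592 and 59826792 on chromosome 2, lie within the stretch from 60.5% to 66.9% of the gene's length. Over the family there were 3 Up and 6 Down marks.

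The BAF genes of the Smarc set had 1 mark each. Smarcb1 (SNF5) and Smarcc2 (BAF170) each had 1 Down mark in susceptible against control mice. Smarcd2 (BAF60B) had 1 Down mark in resilient against control mice, at position 106128412 on chromosome 11, 0.534 kb inside the start of a gene of 4.46 kb. Smarca4, the BRG1 motor of BAF, had 1 Down mark in resilient against susceptible mice, 80.7 kb into the gene. With Smarca5, each of the 5 protein-coding Smarc genes had a Down mark and none an Up mark, in 6 entries over the 3 tables. Down marks made up 62.4% of all positions given a gene for susceptible against control, 63.3% for resilient against control and 50.2% for resilient against susceptible mice, and small one-way counts here and in other families are to be read beside these shares. Arid1b, Dpf3 and Ss18, BAF subunits with other names, each had marks in both directions, more of them Down than Up. Actl6b, a further BAF subunit, had 1 Down mark in susceptible against control mice and no Up mark.

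The pseudogene Smarca5-ps was the exception in the Smarc set. Its position 145054712 on chromosome 4, 0.6 kb from its start, was Up in susceptible against control mice and Down in resilient against susceptible mice, and it was not listed in resilient against control mice. The 2 marks share the susceptible data. Reads of Smarca5-ps and Smarca5 may be hard to part, since the copies are alike, so the value is uncertain. Within 500 kb of the pseudogene the tables listed 14 positions for each stressed group against controls and 22 for resilient against susceptible mice. The same reach around Smarca5 held 16 for susceptible against control, 8 for resilient against control and 10 for resilient against susceptible mice.

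Arid genes, some of which make BAF subunits, were listed in every comparison but resilient against control. Arid5b, a partner of the demethylase Phf2, had 2 Up marks in resilient against susceptible mice, at 67642022 and 67681732 on chromosome 10. Arid1b, a BAF subunit with a known part in intellectual disability, had 1 Up and 1 Down mark there, at 5041662 and 5051142 on chromosome 17, and 1 Down mark in susceptible against control mice. Arid4a and Arid3b had 1 mark each in resilient against susceptible mice, Up for Arid4a and Down for Arid3b. Arid4b, which like Arid4a works with the Sin3 corepressor, had 1 Up mark in susceptible against control mice.

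Of the CHD remodellers, Chd7 had the most entries. Chd7, mutated in CHARGE syndrome (chromosome 4, bounds 8618067 to 8793956, plus strand), had 2 Down marks in susceptible against control mice, at 8669122 and 8768842. In resilient against control mice it had 1 Up mark at 8768392, which is 450 bp from the second Down mark. In resilient against susceptible mice it had 1 Up mark at 8625102, 7.03 kb into the gene. Chd7 thus had Up marks in resilient mice against both other groups and Down marks in susceptible mice, at 4 separate positions.

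Other CHD genes had 1 entry each. Chd3, a NuRD motor, had 1 Up mark in susceptible against control mice. Chd6 had 1 Down mark in resilient against control mice, at 98.5% of its length, and Chd1l, a remodeller drawn to DNA damage, had 1 Down mark there, 1.81 kb upstream of its start. Chd8, linked to autism, had 1 Up mark in resilient against susceptible mice. Chd2, a remodeller gene linked to epilepsy, had no occupancy change and was the only member with a shift: the authors' deposited table gives 70 bp at position 80628462 on chromosome 7 for resilient against susceptible mice, 58.2 kb into the gene. A shift in that comparison was listed for 1.7% of all named genes, and the set's 1 of 38 is close to this. In susceptible against control mice 0 members had a shift, against 2.15% of all named genes, and in resilient against control mice 0, against 1.93%. The sign of a shift is not defined in the sources used here.

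**Figure D3:**
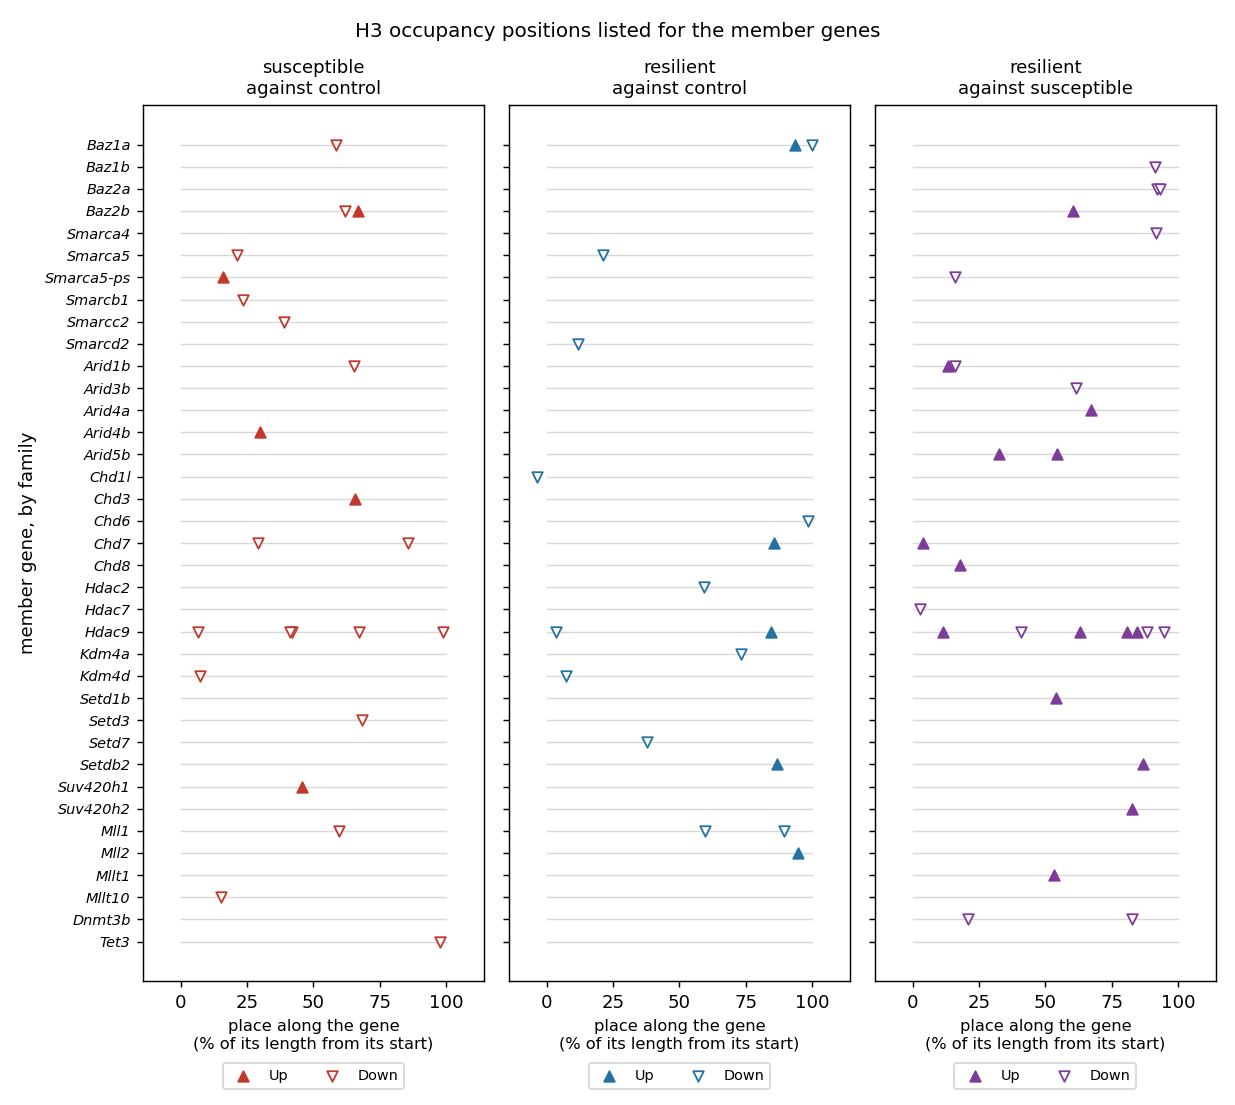
Each listed occupancy position of the 37 members with at least 1, by gene (y axis) and place along the transcript named in the table (x axis, percent of its length from its start), in the 3 comparisons; filled triangles are Up and open triangles Down. Hdac9 has 5 open and no filled triangles in susceptible against control mice, and Chd1l is the only gene with a position before its start.

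Hdac9 held 14 of the 16 entries of the Hdac members, at 13 distinct positions. HDAC9 is a class IIa deacetylase, a group of neuron and muscle enzymes that act through corepressors and MEF2 factors. The gene (chromosome 12, bounds 34732446 to 35601767, minus strand) is 869 kb long. In susceptible against control mice it had 5 Down marks and no Up mark, at 34744362, 35018122, 35203582, 35237882 and 35242592. They lie 857, 584, 398, 364 and 359 kb from the start of the longest transcript; for the position at 398 kb the table names a shorter transcript, whose start is 10.2 kb away. In resilient against control mice it had 1 Up mark, at 521 kb, and 1 Down mark, at 30.7 kb.

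In resilient against susceptible mice Hdac9 had 4 Up and 3 Down marks. The Up marks lay 99, 521, 548 and 701 kb from the start, and the Down marks 354, 767 and 822 kb. The Up mark at 521 kb, position 35080892, is the same position as the Up mark against controls, and the resilient data are in both comparisons.

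Hdac9's count was set beside that of genes of like length. Among 42 named genes of 700 to 1000 kb, Hdac9 included, the median was 6.5 entries and the range 1 to 32, and 8 genes had more than Hdac9's 14. Over all named genes 65 had more entries, and 55 were longer. Of 103 genes with at least 5 positions in susceptible against control mice, 13 (12.6%), Hdac9 among them, had only Down marks and 0 had only Up marks. Within 500 kb on either side of Hdac9's bounds, its own positions included, this comparison listed 6 Up and 9 Down marks.

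**Figure D4:**
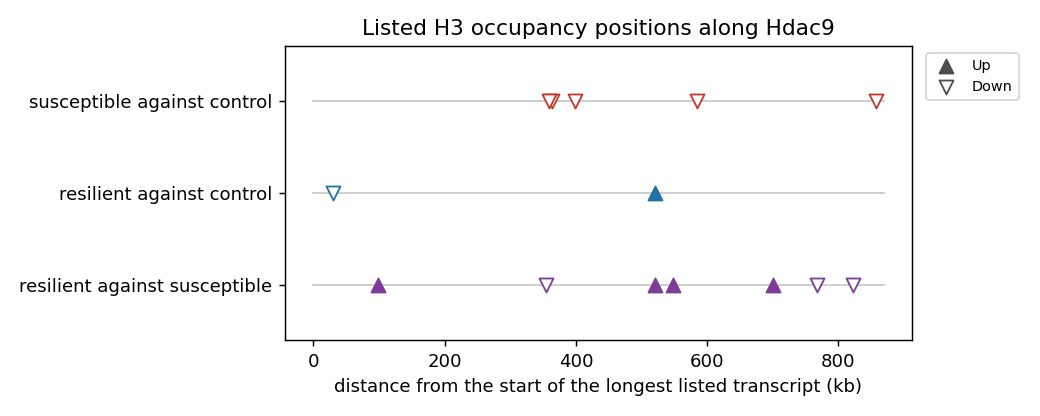
Listed H3 occupancy positions along Hdac9 by distance from the start of its longest listed transcript (x axis, kb) in the 3 comparisons; filled triangles are Up, open triangles Down. The 5 positions in susceptible against control mice are all Down and lie from 359 to 857 kb.

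The other Hdac members had 1 mark each. Hdac2, a class I enzyme of neurons, had a Down mark in resilient against control mice, 16.2 kb into the gene. Hdac7, another class IIa enzyme, had a Down mark in resilient against susceptible mice, 1.43 kb inside its start. No Hdac member other than Hdac9 was listed in susceptible against control mice.

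The 2 listed Kdm demethylases outside chromosome 1 had Down marks alone. Kdm4d, which removes methyl groups from H3 lysine 9, had position 14302082 on chromosome 9, 2.84 kb inside its start. It was Down in both stressed groups against controls, with the control data in both. Kdm4a, which acts on lysines 9 and 36 of H3, had 1 Down mark in resilient against control mice, 27.9 kb into the gene. Neither was listed between resilient and susceptible mice.

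The Setd and Suv members, methyltransferases with a SET domain, had 5 Up and 2 Down marks over the 3 tables; Mll1 and Mll2, which have that domain too, had 1 Up and 3 Down. Setdb2, an H3 lysine 9 enzyme, had position 60026072 on chromosome 14, 33.6 kb into the gene, marked Up in resilient mice against both other groups, with the resilient data in both. A further Up position in resilient against susceptible mice, 60019262, was given no gene and lies 1585 bp past the bounds of Setdb2. Suv420h1 and Suv420h2, the H4 lysine 20 enzymes, each had 1 Up mark, Suv420h1 in susceptible against control and Suv420h2 in resilient against susceptible mice. Setd1b, which methylates H3 lysine 4, had 1 Up mark in resilient against susceptible mice. Setd7, another H3 lysine 4 enzyme, had 1 Down mark in resilient against control mice, and Setd3, which methylates actin, 1 Down mark in susceptible against control mice.

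Mll1, the founding H3 lysine 4 methyltransferase of the MLL family, had 3 Down marks. Position 44643022 on chromosome 9, 46.3 kb into the gene, was Down in both stressed groups against the shared controls, and 44619782 was Down in resilient against control mice. Mll2, whose accession is that of Kmt2d in RefSeq, had 1 Up mark in resilient against control mice near its end, at 94.7% of its length. Of the fusion partners, Mllt10, a DOT1L cofactor, had 1 Down mark in susceptible against control mice and Mllt1, a reader of acetylated histones, 1 Up mark in resilient against susceptible mice.

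Enzymes of DNA methylation had Down marks alone. Dnmt3b, a de novo DNA methyltransferase, had 2 in resilient against susceptible mice, 8.02 and 31.6 kb into the gene, at 153483202 and 153506802 on chromosome 2. Tet3, which oxidises methylcytosine, had 1 in susceptible against control mice, near its end at 97.6% of its length. Dnmt1, Dnmt3a, Tet1 and Tet2 were not listed.

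Member entries are positions given a gene, so that they lie in or close to a gene was set by the choice of members. Of the 68 member entries 61 (89.7%) were of the gene body class, against 87.2% of all entries given a gene. The promoter classes, which reach to 3000 bp from the start, held 7 entries (10.3%), against 12.8%, at 5 distinct positions. They belong to Kdm4d and Smarca5-ps, each with 1 position in 2 tables, and to Chd1l, Hdac7 and Smarcd2. No member position was within 250 bp of a start, a class that held 1.04% of all entries. Of the 61 gene body entries 15 lay in the first of 3 equal parts of the gene, 19 in the middle part and 27 in the last, or 24.6, 31.1 and 44.3%, against 26.6, 34 and 39.4% for all genes.

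The members overlapped ACF1 segments about as seldom as all named genes. A segment is a run of the minority state E2, 1 of 2 states into which the authors divided the genome in steps of 200 bp; nothing in the files says that E2 stands for ACF1 binding. In susceptible mice 1 of 38 members overlapped a segment, against a background of 2.5% of all named genes. In resilient mice 0 did, against 1.4%, and in control mice 1, against 1.81%. In susceptible mice it was Smarca4, with 21469001 to 21470000 on chromosome 9, a segment of 1000 bp centred 48.9 kb into the gene and 31.9 kb from its Down position. In control mice it was Baz2b, with 59944001 to 59944800 on chromosome 2, a segment of 800 bp centred 19.4 kb into the gene and 118 kb from its nearest listed position. Baz1a and Smarca5 overlapped no segment in any group, and their nearest lay 2813 and 421 kb away in susceptible, 2807 and 607 kb in resilient and 6474 and 1987 kb in control mice.

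Distances to the nearest segment were also set beside those of all named genes. The median distance from a member to the nearest segment was 827 kb in susceptible, 1856 kb in resilient and 1578 kb in control mice, against 914, 2018 and 1516 kb for all named genes. The 3 lists hold 1133, 716 and 749 segments, so that distances differ between groups with the length of the list. Smarca5-ps lay 23.5 kb from a segment in susceptible, 24.1 kb in resilient and 23.9 kb in control mice. Hdac9 lay 21.2 kb from one in control mice, against 743 kb in susceptible and 210 kb in resilient mice. No other member was within 25 kb, beyond the 2 with an overlap. Counted with the overlaps, 2 members lay within 25 kb in susceptible, 1 in resilient and 3 in control mice, against 4.83, 2.81 and 3.41% of all named genes.

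**Figure D5:**
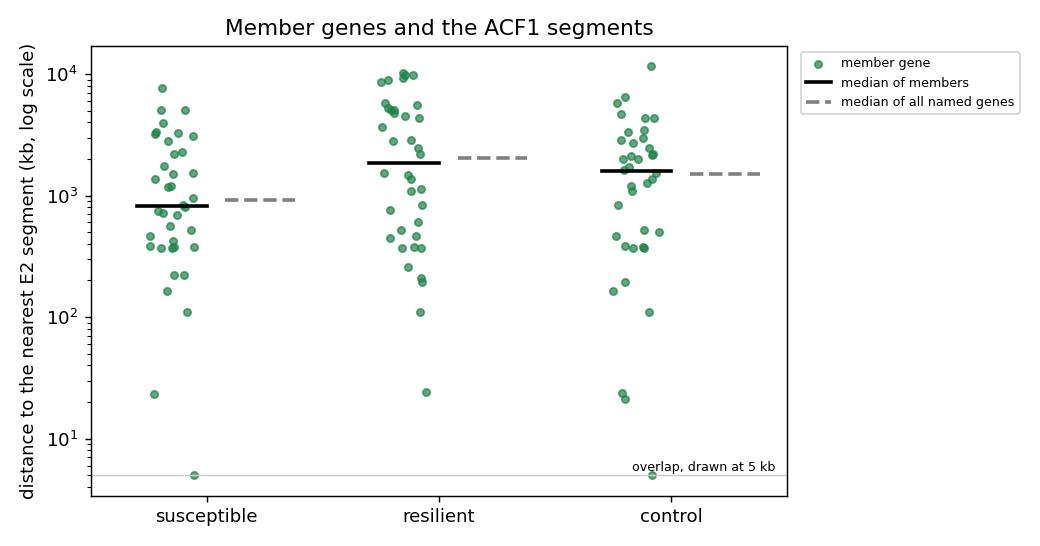
Distance of each of the 38 members to the nearest E2 segment (y axis, kb, log scale) in susceptible, resilient and control mice; black bars are the members' medians and dashed grey bars those of all named genes. Smarca4 in susceptible and Baz2b in control mice overlap a segment and are drawn at 5 kb.

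A second list of 87 chromatin genes outside chromosome 1 that the symbols do not catch, among them Polycomb, bromodomain, sirtuin, PRDM, PRMT and corepressor genes, had 26 named genes (29.9%, against the 29.5% of all protein-coding genes). In susceptible against control mice its 21 positions were 11 Up and 10 Down (52.4% Up, against 37.6% over all positions). In resilient against control mice its 11 were 5 Up and 6 Down (45.5% Up, against 36.7%). In resilient against susceptible mice its 20 were 12 Up and 8 Down (60% Up, against 49.8%). These counts are small, no interval was computed for them, and a lean towards Up was not tested. Prdm16, a zinc finger methyltransferase, had 2 Up and 3 Down marks in susceptible against control and 2 Up and 1 Down in resilient against susceptible mice, and an ACF1 segment of 1000 bp in susceptible mice, 154010601 to 154011600 on chromosome 4. Smyd1, a methyltransferase known from muscle, had 1 Up and 3 Down marks in susceptible against control and 1 Up in resilient against control mice. Sin3b, a corepressor scaffold, had 2 Up marks in resilient mice against each of the other groups, with the resilient data in both.

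Dpf3, a neuronal BAF subunit, had 1 Up mark in susceptible against control mice, 2 Down in resilient against control mice, and 1 Up and 1 Down in resilient against susceptible mice. Ercc6, a remodeller of transcription-coupled repair, had 1 Up and 1 Down mark in susceptible against control mice and 1 Down mark in each of the other comparisons. Ss18, another BAF subunit, had 1 Down mark in each stressed group against controls and 1 Up mark in resilient against susceptible mice. Sirt1, a sirtuin deacetylase, had 1 Up mark in susceptible against control and 1 Down mark in resilient against susceptible mice. Carm1 had the same marks in these comparisons.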

How the data were processed

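Per the labels' protocols, accumbens tissue was lightly fixed, then sheared for ACF1 or digested with micrococcal nuclease for H3 before immunoprecipitation. Libraries were amplified with 19 PCR cycles (ACF1) or 15 (H3) and read at 100 bp. The submitters' processing notes name CASAVA 1.8.2 and the build mm9. An aligner and the programs behind the segments and tables are named nowhere in the sources used here. Of 15 samples, the 3 ACF1 and 3 H3 samples had files; SNF2H and input libraries were not analysed here. The labels speak of triplicates, but the authors deposited 1 result per group or pair of groups, with no counts, so depth is unknown and no test was run. Selection by thresholds that are not stated decided which changes the authors listed. The pair of groups of each table was read from its deposited name.

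Entries were counted by gene symbol, class and mark. Gene bounds are the widest that the tables give, on mm9; listed positions are 1-based. Overlap with a segment needed 1 bp. Members were matched to RefSeq (GRCm38.p6) by accession, then symbol, for all 38; that build was used for names, family sizes and promoters only. The members and lists were chosen with earlier results of these data known. Named in the text are members with at least 4 entries, a promoter position, a shift or a segment, and Baz1a and Smarca5. Other chromatin genes are named with at least 4 entries or a segment. The remaining members were named after their values were seen, to account for each. Ep300, Actl6b, Ss18, Sirt1 and Carm1 were also named after their values were seen, and further listed genes of the second list are left out. Counting functions were tested on simulated intervals. Alternatives added chromosome 1, joined positions within 1000 bp, kept positions inside gene bounds, left out Mllt genes, sex chromosomes or the member with most positions (first by alphabet in a tie), asked for 200 bp of overlap or widened bounds by 5000 bp; leaving out Smarca5-ps was added after seeing the data. Tables were read with pandas 2.3.3 and numpy 2.4.6 under Python 3.11.15, intervals came from scipy 1.17.1, and plots from matplotlib 3.10.9.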

Additional observations from a re-analysis of the deposited data

Results flagged for a closer look

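Chd7 was picked out because its marks against control mice ran opposite ways in the stressed groups. In susceptible against control mice both its listed positions were Down, and in resilient against control mice its 1 listed position was Up. The nearest marks of opposite direction lie 450 bp apart, at different listed positions. Over all positions given a gene, 37.6% were Up in susceptible against control and 36.7% in resilient against control mice. Among the members, Baz1a with 1 and Hdac9 with 5 also had only Down marks in susceptible against control mice. Each had 1 Up mark in resilient against control mice, beside 1 Down mark there. Mll1, Smarca5 and Kdm4d had only Down marks in both comparisons. How many of all named genes have opposite marks in these comparisons was not counted, so the pattern is not shown to be particular to Chd7. The difference between the stressed groups was not tested, since each comparison has 1 deposited table, and both comparisons share the control data.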

How the results depend on the processing

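Of 39 alternative values, 37 stayed close to the reported ones, within 1.5 times for counts and within the 95% counting interval for the share of Up. Several of these could not move. No member lies on a sex chromosome, and Smarca5-ps has no entry in resilient against control mice. The overlapping segments, of 1000 and 800 bp, both lie wholly inside their genes. The counting intervals are wide, so that staying inside them is a weak check. The 2 that moved came with chromosome 1, which adds genes to the set: member positions in susceptible against control mice were 89 with it and 23 without it, and shifts were 5 with it and 0 without it. Without Hdac9 the share of Up was 27.8% in susceptible against control and 52.4% in resilient against susceptible mice, and without the pseudogene Smarca5-ps it was 18.2% and 55.6%. Widening the gene bounds by 5000 bp or asking for 200 bp of overlap left 1 member with a segment in susceptible, 0 in resilient and 1 in control mice. No paired analysis was possible because the result comes from no test and the tables carry no replicate numbers. Depth is unknown, so a gene with no listed position may have been unchanged, not testable or not selected.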

Other observations

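Chromatin genes on chromosome 1 are outside the set, and they held more entries than all members together: 77 in 5 genes. Hdac4, a class IIa deacetylase like Hdac9, had 41, of which 1 Up and 34 Down were occupancy marks in susceptible against control mice and 4 were shifts. Smarcal1 had 15 Down marks in that comparison, Ino80d 7, Arid5a 5 and Kdm5b 4, with no Up mark in any of these. In the same comparison 98.4% of the 11436 positions given a gene on chromosome 1 were Down. In resilient against control mice the 5 genes had 0 Up and 3 Down marks, and in resilient against susceptible mice 1 Up and 2 Down.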
